A study of Homo sapiens with 12 samples.

Results

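The interferon-stimulated and antiviral sensing genes are a set of 44 genes chosen by name: sensors of foreign nucleic acid, the receptor and transcription factors of the type I interferon pathway, and the antiviral effectors that interferon induces. Of these, 43 were measured among 12706 genes tested. STAT2 has no probe named in the annotation and was not analysed here. All 43 passed the filter on dim probes, so none was lost to it, and 16 of them had more than 1 probe. They were measured in MDA-MB-231, a human triple-negative breast cancer cell line, on single-colour bead arrays of total RNA. One group of 6 samples was transfected for 24 h with 30 nM of a locked nucleic acid (LNA) gapmer, an antisense oligonucleotide that directs RNase H to its target, against the long noncoding RNA CYTOR (LINC00152). The other group of 6 received a control LNA at the same dose, so both groups carry the transfection itself and no untransfected cells were compared. The comparison asks whether the interferon program differs when CYTOR is lowered.

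In the type I interferon pathway, sensors of foreign or misplaced RNA and DNA lead to the activation of IRF3 and IRF7, which induce interferon genes. Secreted interferon binds the receptor made of IFNAR1 and IFNAR2, and a complex of STAT proteins with IRF9 then enters the nucleus and binds a promoter element, the interferon-stimulated response element (ISRE). The genes it induces include the IFIT, OAS, MX and IFITM families. Many breast cancer lines carry part of this program without added interferon, and the effector genes named here are widely used as its readout.

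The promoters of 6 of these genes are shown because the genes carry the ISRE core and yet moved differently: ISG20, IFIT3 and IFI44 fell, TAP1 rose, and IFIT1 and ISG15 did not pass the test. Each sequence is the 250 bases before the most upstream transcript start listed for the gene (RefSeq, GRCh38.p14), written in the gene's own direction, with capitals on every match to the ISRE core, which is TTTC, any 2 bases and TTTC, on either strand. The windows are chr15:88638766-88639015 on the plus strand for ISG20, chr10:89327747-89327996 on the plus strand for IFIT3, chr1:78649539-78649788 on the plus strand for IFI44 and chr6:32853705-32853954 on the minus strand for TAP1. Those of IFIT1 and ISG15 are chr10:89392373-89392622 and chr1:1013247-1013496, both on the plus strand.
ISG20: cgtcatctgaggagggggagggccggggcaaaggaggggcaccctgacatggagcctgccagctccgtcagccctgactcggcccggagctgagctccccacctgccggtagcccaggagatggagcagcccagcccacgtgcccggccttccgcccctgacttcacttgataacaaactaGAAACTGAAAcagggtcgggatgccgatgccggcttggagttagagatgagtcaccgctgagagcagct
IFIT3: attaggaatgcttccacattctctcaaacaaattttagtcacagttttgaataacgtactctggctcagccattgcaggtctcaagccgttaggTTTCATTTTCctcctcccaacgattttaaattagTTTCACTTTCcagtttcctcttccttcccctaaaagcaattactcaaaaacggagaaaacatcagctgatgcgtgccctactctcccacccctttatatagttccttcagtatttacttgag
IFI44: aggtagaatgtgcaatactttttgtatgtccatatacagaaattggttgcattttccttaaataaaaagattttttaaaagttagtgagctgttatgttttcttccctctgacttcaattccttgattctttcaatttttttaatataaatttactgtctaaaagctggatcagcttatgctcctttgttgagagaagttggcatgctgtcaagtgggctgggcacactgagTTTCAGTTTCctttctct
TAP1: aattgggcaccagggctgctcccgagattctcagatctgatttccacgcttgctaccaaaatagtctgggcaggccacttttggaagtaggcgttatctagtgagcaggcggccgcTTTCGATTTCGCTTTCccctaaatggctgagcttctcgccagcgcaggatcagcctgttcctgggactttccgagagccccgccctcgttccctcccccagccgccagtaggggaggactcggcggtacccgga
IFIT1: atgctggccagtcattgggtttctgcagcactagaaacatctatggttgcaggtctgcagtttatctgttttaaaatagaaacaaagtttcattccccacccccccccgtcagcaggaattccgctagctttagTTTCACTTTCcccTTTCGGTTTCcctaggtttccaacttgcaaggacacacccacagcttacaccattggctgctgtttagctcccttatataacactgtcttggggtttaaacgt
ISG15: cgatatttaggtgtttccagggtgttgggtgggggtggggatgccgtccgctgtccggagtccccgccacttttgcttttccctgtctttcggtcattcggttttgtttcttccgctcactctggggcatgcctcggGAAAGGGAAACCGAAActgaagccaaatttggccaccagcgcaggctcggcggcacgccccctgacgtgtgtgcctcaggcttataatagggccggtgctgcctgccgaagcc
The single match of ISG20 lies at -69 to -60 and that of IFI44 at -18 to -9, counted from the transcript start. IFIT3 has matches starting at -156 and -122, and IFIT1 at -116 and -103. TAP1 and ISG15 each have a pair of overlapping matches, starting at -134 and -128 and at -113 and -107.

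The core was frequent in the whole set. The promoter table held 34 of the 44 genes, STAT2 included, in windows of 300 bases (250 before and 50 after the start). At the most upstream start 20 of the 34 genes held this core, 58.8%, against 3.66% of 27305 genes in the table. The STAT dimer core TTCNNNGAA, known as the gamma-activated sequence (GAS), was found in 8 of the 34, 23.5%, against 7.88% of all genes, and it overlapped an ISRE match in IFI27, IFITM1 and BST2. Both cores were present in 4 genes and neither in 10. Of the 20 genes with the ISRE core 3 fell, 1 rose and 16 did not pass, and their log2 differences ran from -0.51 to 0.20 with a median near 0 (-0.0012). Of the 14 without it none passed, STAT2 being unmeasured. IRF7, which rose, had no promoter in the table and is in neither count. The same holds for IFIT2, MX2, OAS2, OASL, IFITM2, IRF3, DHX58, USP18 and IFNAR2, none of which passed. A match in these windows is a description of the letters and not a shown binding site.

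**Figure D1:**
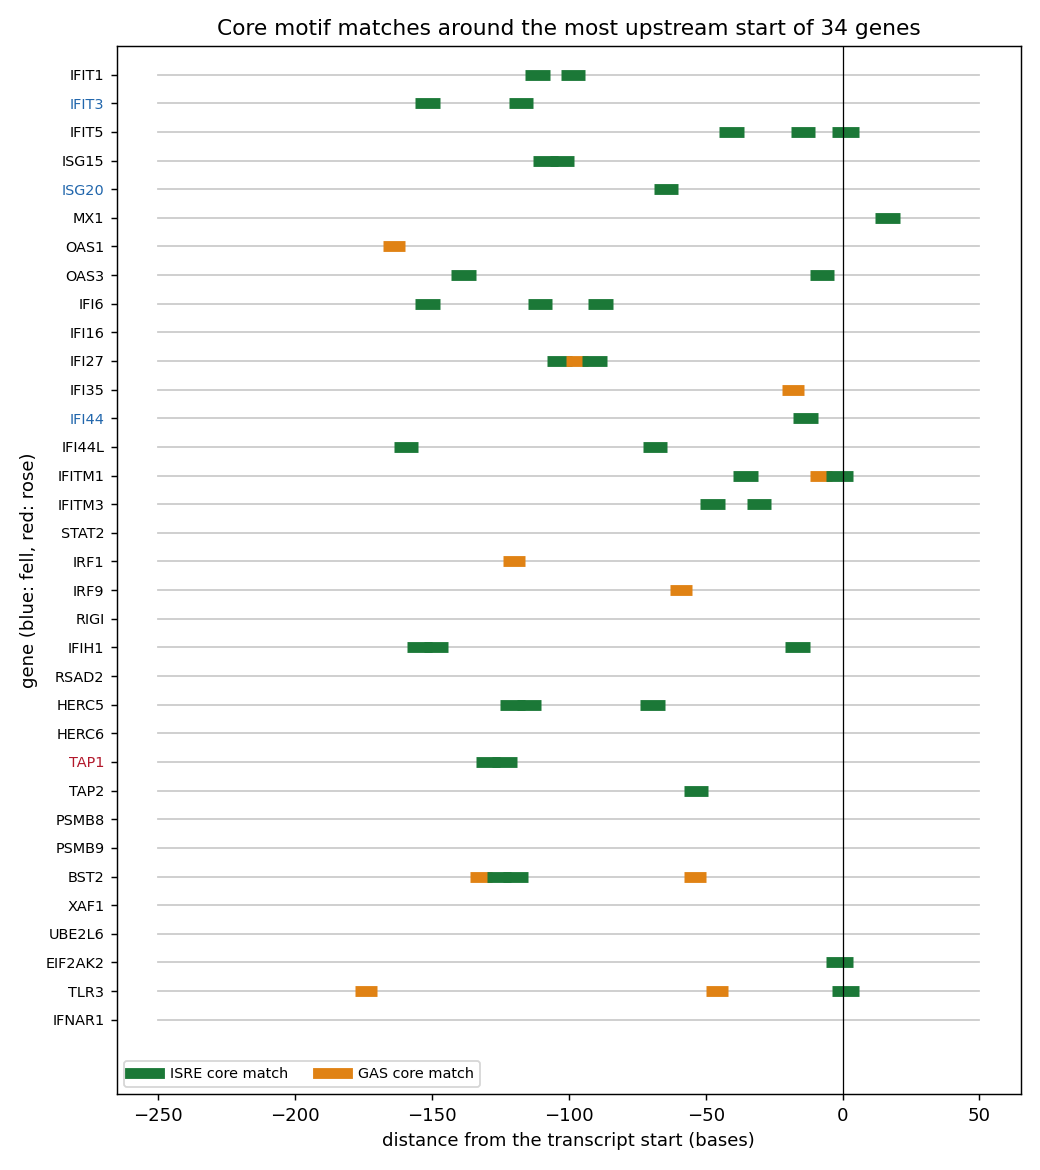
Matches to the ISRE core (green) and the GAS core (orange) in windows from 250 bases before to 50 bases after the most upstream transcript start of 34 genes; the x axis is the distance from the start in bases and each line is 1 gene. Names in blue fell, the name in red rose, and 20 genes carry a green mark.

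The labels were borne out by the target: the brightest CYTOR probe had a mean of 7.83 ± 0.12 (SD, n = 6) in controls and of 6.74 ± 0.10 (SD, n = 6) in silenced cells, with no overlap. Further CYTOR probes, dimmer in controls, gave log2 differences of -0.67 (limma adjusted p = 7e-12) and -0.13 (limma adjusted p = 0.022). The groups overlapped for the last of these. The silenced mean of the brightest probe lay close to the median of an array, so the fall may be understated. Values are the authors' normalized log2 values, and the median of an array is 6.53, close to the level a probe had to reach to be tested (6.52). For 8 of the 43 genes the control mean lay within 0.5 of the array median: MX2, OAS1, IFI44L, DHX58, RSAD2, BST2, USP18 and TLR3. Small differences are hard to see at that level, so values near 0 for these genes say little. The labels name 2 batches. Batch 1 held 1 CYTOR LNA array (replicate 2) and 3 controls, and batch 2 held 5 and 3. CYTOR LNA replicate 2 stood apart: its mean correlation with its own group was 0.9947, the lowest of the 12 arrays, against 0.9962 to 0.9977 for the others. It was the highest or lowest of its group for 24 of the 43 genes, 55.8%, and for 48.3% of all genes tested. Values within batch 2, where this array is absent, are therefore given for the genes called and for several others. The 6 markers listed as high in this line had control means from 8.32 (S100A4) to 13.3 (VIM). CD44, another of them, was lower after the CYTOR LNA (log2 difference -0.21, SE 0.059, limma adjusted p = 0.034). Its further probes gave 0.07, at a control mean of 6.57 near the array median, and -0.05, and were not called. The probe at -0.05 gave -0.23 within batch 2 and 0.40 in batch 1. The brightest CD44 probe gave -0.20 and -0.21. CDH1 (6.52) lay at the array median, while ESR1 and FOXA1 did not pass the filter. EPCAM (7.98) and ERBB2 (7.76), listed as low in this line, lay above the array median. Whether the 6 samples of a group were separate cultures is not stated in the labels. The p-values rest on the spread among these samples, and that spread may be technical. In bulk RNA, fewer cells expressing a gene and less RNA per cell cannot be told apart.

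Differences between the groups were small and of both signs. Of the 43 genes 3 fell (ISG20, IFIT3, IFI44), 2 rose (IRF7, TAP1) and 38 did not pass, by limma with group and batch as terms and a Benjamini-Hochberg adjusted p below 0.05 over all probes. That is 11.6% called, where 7.89% of all genes tested were called, 5.41% lower and 2.49% higher. The shares among the 43, 6.98% lower and 4.65% higher, rest on 3 and 2 genes and are not read as a difference from that background. Log2 differences (CYTOR LNA minus control LNA) had a median of -0.0011 in the set and 0.0038 over all genes tested, and their median size was 0.06 and 0.05. The set was split evenly, with 22 negative and 21 positive values. At an unadjusted p below 0.05, 8 genes were lower and 6 higher, 32.6% of the set, against 21.6% of all genes tested (1454 lower and 1293 higher). Groups did not overlap for 4 genes, with ISG20, IFIT3 and IFI44 lower and IRF7 higher, while 6.77% of all genes tested had groups that did not overlap (4.83% lower, 1.94% higher).

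**Figure D2:**
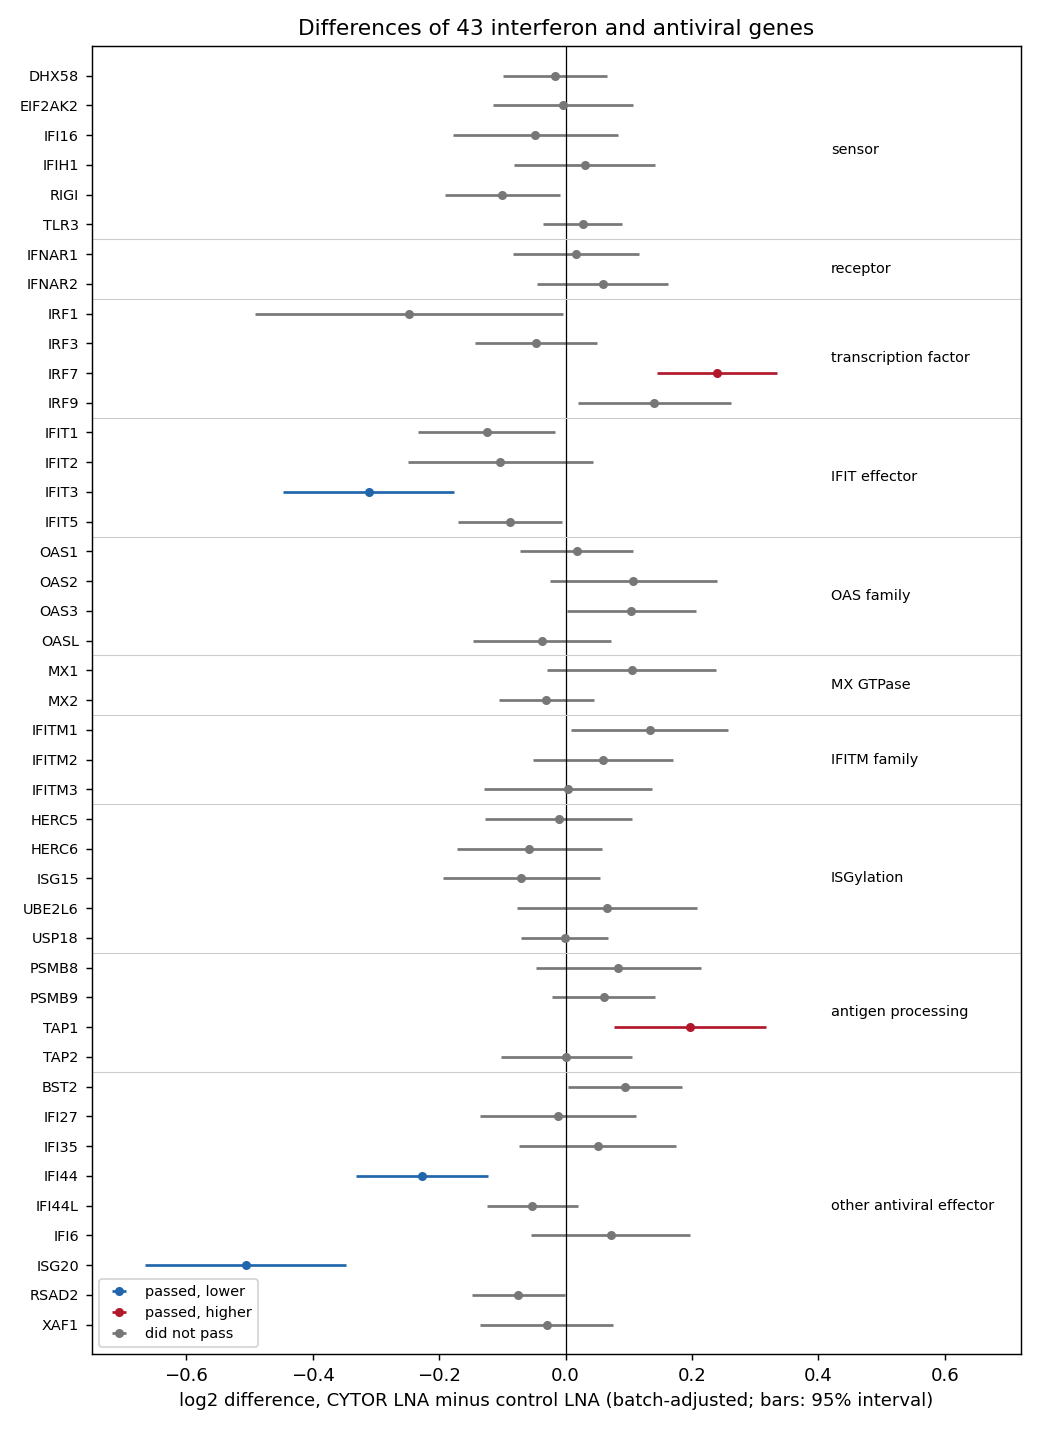
Log2 difference of each of the 43 genes (x axis; CYTOR LNA minus control LNA, adjusted for batch) with its 95% interval, grouped by role, n = 6 arrays per group. ISG20, IFIT3 and IFI44 (blue) lie below 0, IRF7 and TAP1 (red) above, and the 38 grey genes did not pass the test.

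ISG20, an exonuclease that degrades single-stranded RNA and acts against RNA viruses, showed the largest difference of the 43. After the CYTOR LNA its 6 values ran from 8.56 to 9.11 with a median of 8.83, and after the control LNA from 9.24 to 9.47 with a median of 9.30. Every silenced array lay below every control. The fall was 1.42-fold (log2 difference -0.51, SE 0.077, limma adjusted p = 6.9e-05, exact permutation p = 0.0022, the smallest that the 924 splits allow). The permutation, here and below, took the plain difference in means and left out the batch. It was -0.38 within batch 2 (adjusted p = 0.00015) and -0.82 in batch 1, with its single silenced array, and the difference between the batches did not pass (adjusted p = 0.058). ISG20 has 1 probe, so no other probe bears on it.

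IFIT3, a member of the tetratricopeptide proteins that bind foreign RNA and which stabilises IFIT1, fell next. Its values ran from 9.92 to 10.21 (median 10.15) after the CYTOR LNA and from 10.32 to 10.54 (median 10.43) in controls, again without overlap. The fall was 1.24-fold (log2 difference -0.31, SE 0.065, adjusted p = 0.0032, exact permutation p = 0.0022), at -0.31 within batch 2 (adjusted p = 0.0033) and -0.33 in batch 1. The other probes of IFIT3 gave -0.16 (SE 0.071, adjusted p = 0.22) and -0.13 (SE 0.048, adjusted p = 0.11), both lower but not past the threshold.

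The other IFIT genes lie beside IFIT3 in the genome, in the order IFIT2, IFIT3, IFIT1 and IFIT5, with 1 other protein-coding gene between IFIT3 and IFIT1 in the RefSeq table. None of the 3 passed, and all had negative values. IFIT1, which binds RNA lacking a host cap methylation, ran from 10.56 to 10.70 (median 10.62) after the CYTOR LNA and from 10.68 to 10.84 (median 10.75) in controls, touching only at the edges (log2 difference -0.12, SE 0.052, adjusted p = 0.18, exact permutation p = 0.0065). IFIT2, its partner in RNA binding, ran from 10.69 to 11.04 (median 10.95) and from 10.83 to 11.19 (median 11.01), and the groups overlapped widely (log2 difference -0.10, SE 0.071, adjusted p = 0.47). IFIT5 differed by -0.09 (SE 0.040, adjusted p = 0.23).

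IFI44, an interferon-induced cytoplasmic protein, fell with little spread. Its values ran from 9.69 to 9.77 (median 9.73) after the CYTOR LNA and from 9.92 to 10.03 (median 9.97) in controls. The groups stood apart by more than the range within either. The fall was 1.17-fold (log2 difference -0.23, SE 0.051, adjusted p = 0.0057, exact permutation p = 0.0022), at -0.22 within batch 2 (adjusted p = 0.017) and -0.24 in batch 1. Its neighbour and paralogue IFI44L differed by -0.05 (SE 0.035, adjusted p = 0.45) and by 0.05 at its second probe, with values within 0.5 of the array median, where small differences are hard to see.

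**Figure D3:**
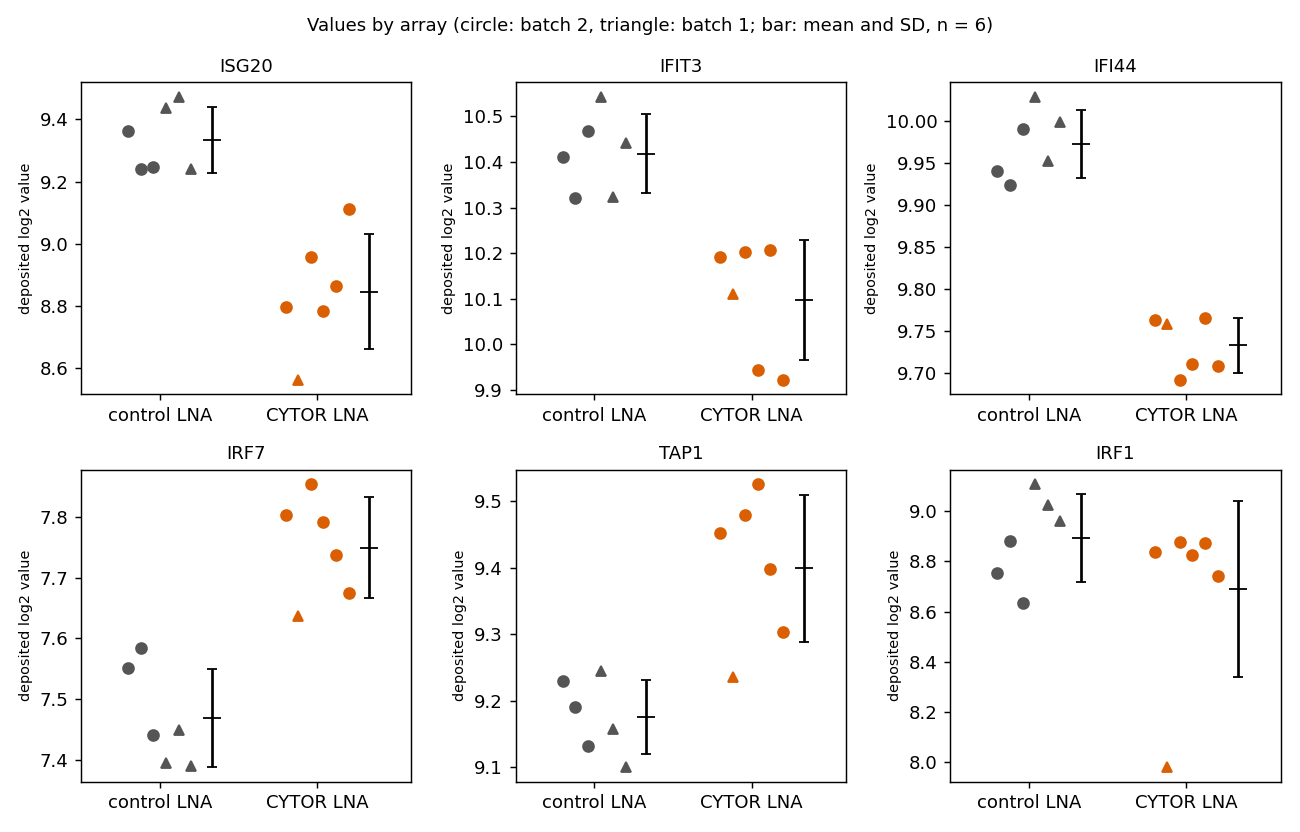
Deposited log2 values (y axis) of ISG20, IFIT3, IFI44, IRF7, TAP1 and IRF1 on each array, by group; circles are batch 2, triangles batch 1, and the bar beside each group is the mean and SD (n = 6). The groups do not overlap for ISG20, IFIT3, IFI44 and IRF7, and in IRF1 1 silenced array lies at 7.98, below all others.

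IRF7, the transcription factor that amplifies the interferon response and is itself induced by it, was higher after the CYTOR LNA. Its values ran from 7.64 to 7.85 (median 7.76), against 7.39 to 7.58 (median 7.45) in controls, with no overlap. The rise was 1.18-fold (log2 difference 0.24, SE 0.046, adjusted p = 0.0013, exact permutation p = 0.0022), and it was 0.25 within batch 2 (adjusted p = 0.0035) and 0.22 in batch 1. A second IRF7 probe also rose (0.16, SE 0.036, adjusted p = 0.0059). It was the only further probe of the set to be called, among 21 further probes that passed the filter, 15 of which had the sign of the probe that represents their gene. One more IRF7 probe did not pass the filter.

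The other transcription factors did not pass. IRF9, the DNA-binding partner of the STAT proteins, differed by 0.14 (SE 0.058, adjusted p = 0.18), and IRF3, the factor that acts first after sensing, by -0.05 (SE 0.047, adjusted p = 0.66). IRF1, an activator of antigen presentation genes, had a log2 difference of -0.25 with a wide error (SE 0.118, adjusted p = 0.25). Its silenced values ran from 7.98 to 8.88 (median 8.83) and its control values from 8.63 to 9.11 (median 8.92). The low value belongs to CYTOR LNA replicate 2, and the other 5 silenced arrays lay between 8.74 and 8.88, inside the control range. Within batch 2 the difference of IRF1 was 0.07 (adjusted p = 0.60), and in batch 1 it was -1.05.

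TAP1, a subunit of the transporter that loads peptides for MHC class I, rose 1.15-fold. Its values ran from 9.24 to 9.53 (median 9.43) after the CYTOR LNA and from 9.10 to 9.24 (median 9.17) in controls, and the lowest silenced array lay just below the highest control. The log2 difference was 0.20 (SE 0.058, adjusted p = 0.043, exact permutation p = 0.0043), at 0.25 within batch 2 (adjusted p = 0.011) and 0.07 in batch 1. The call stood close to the threshold and was lost when any of 8 arrays was left out (highest adjusted p = 0.14) and with a replicate block (adjusted p = 0.074). TAP1 lies in a run of adjacent genes with TAP2, PSMB8 and PSMB9, the other transporter subunit and inducible proteasome subunits. TAP2 (log2 difference 0.0014, SE 0.050, adjusted p = 0.99), PSMB8 (0.08, SE 0.064, adjusted p = 0.53) and PSMB9 (0.06, SE 0.039, adjusted p = 0.44) did not pass.

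Sensors and receptor subunits gave no call among 8 genes by limma, with 1 lower (RIGI) and 0 higher at an unadjusted p below 0.05 by the probes that represent them. RIGI (listed as DDX58), the sensor of uncapped RNA ends, had a log2 difference of -0.10 (SE 0.044, adjusted p = 0.21, exact permutation p = 0.0043). IFIH1 (MDA5), which binds long RNA duplexes, differed by 0.03 (SE 0.054, adjusted p = 0.83). DHX58 (LGP2), their regulator, differed by -0.02 (SE 0.040), and EIF2AK2 (PKR), the RNA-activated kinase that blocks translation, by -0.0039 (SE 0.053). IFI16, a DNA sensor, differed by -0.05 (SE 0.063), with -0.14 within batch 2 (adjusted p = 0.22) and 0.18 in batch 1. TLR3, the endosomal sensor of RNA duplexes, differed by 0.03 (SE 0.030) at values near the array median. Its second probe gave 0.09 (SE 0.032, unadjusted p = 0.011, limma adjusted p = 0.11). IFNAR1 differed by 0.02 (SE 0.048) and IFNAR2 by 0.06 (SE 0.050), and the second IFNAR2 probe gave 0.09 (SE 0.036, unadjusted p = 0.018, limma adjusted p = 0.15). The 95% intervals of the probes that represent these 8 genes lay between -0.19 and 0.16, so changes beyond that size fall outside them.

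None of the 3 IFITM genes passed in limma, and IFITM1 was higher at an unadjusted p below 0.05. IFITM2, one of the membrane proteins that block virus entry, ran from 11.89 to 12.09 (median 11.96) after the CYTOR LNA and from 11.78 to 12.07 (median 11.94) in controls. IFITM3, the family member best known for restricting influenza virus, ran from 11.68 to 12.08 (median 11.81) and from 11.77 to 12.03 (median 11.85). Both pairs of groups overlapped widely, with log2 differences of 0.06 (SE 0.054) and 0.0033 (SE 0.064). IFITM1 differed by 0.13 (SE 0.060, adjusted p = 0.22), and by 0.20 within batch 2 alone (adjusted p = 0.039). The IFITM genes are close copies that lie side by side, so their probe signals may be shared.

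ISG15, an interferon-induced ubiquitin-like modifier that enzymes attach to proteins, ran from 11.59 to 11.90 (median 11.82) after the CYTOR LNA and from 11.64 to 11.95 (median 11.89) in controls (log2 difference -0.07, SE 0.060, adjusted p = 0.60). UBE2L6, its conjugating enzyme, ran from 9.98 to 10.44 (median 10.39) and from 10.07 to 10.30 (median 10.22), with 5 of 6 silenced arrays above the control median (log2 difference 0.07, SE 0.069, adjusted p = 0.68). HERC5, its ligase in human cells, ran from 10.45 to 10.72 (median 10.65) and from 10.52 to 10.67 (median 10.59) and differed by -0.01 (SE 0.056). HERC6 differed by -0.06 (SE 0.056), and USP18, the protease that removes ISG15, by -0.0011 (SE 0.033). None of the 5 genes of this system passed in limma, and 0 were lower or higher at an unadjusted p below 0.05.

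Among the remaining effectors, none passed in limma. At an unadjusted p below 0.05 OAS3 and BST2 were higher and RSAD2 lower. For OAS3 this rested on CYTOR LNA replicate 2: its difference was 0.02 within batch 2 (adjusted p = 0.88) and 0.31 in batch 1. IFI27, a small mitochondrial protein, ran from 10.31 to 10.56 (median 10.48) after the CYTOR LNA and from 10.38 to 10.57 (median 10.46) in controls, a difference of -0.01 (SE 0.060). MX1, the GTPase that traps viral nucleocapsids, differed by 0.10 (SE 0.065, adjusted p = 0.41), with 0.20 within batch 2 (adjusted p = 0.051) and -0.14 in batch 1, and MX2 differed by -0.03 (SE 0.037). The oligoadenylate synthetases, which make a second messenger of the antiviral response, differed by 0.02 (OAS1, SE 0.043), 0.11 (OAS2, SE 0.064) and 0.10 (OAS3, SE 0.050, adjusted p = 0.25), and the related OASL by -0.04 (SE 0.053). Further probes gave -0.03 and 0.01 for OAS1, -0.01 and 0.03 for OAS2, -0.05 for OAS3 and 0.06 for OASL, so the family has no direction shared by its probes. OAS2 gave 0.20 within batch 2 (adjusted p = 0.060) and -0.11 in batch 1. BST2 (tetherin), which holds budding viruses at the surface, differed by 0.09 (SE 0.044, adjusted p = 0.24). RSAD2 (viperin), which makes a chain-terminating nucleotide, differed by -0.07 (SE 0.035, adjusted p = 0.25). IFI6 (0.07, SE 0.061), IFI35 (0.05, SE 0.060) and the apoptosis-linked XAF1 (-0.03, SE 0.051) completed the set.

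**Figure D4:**
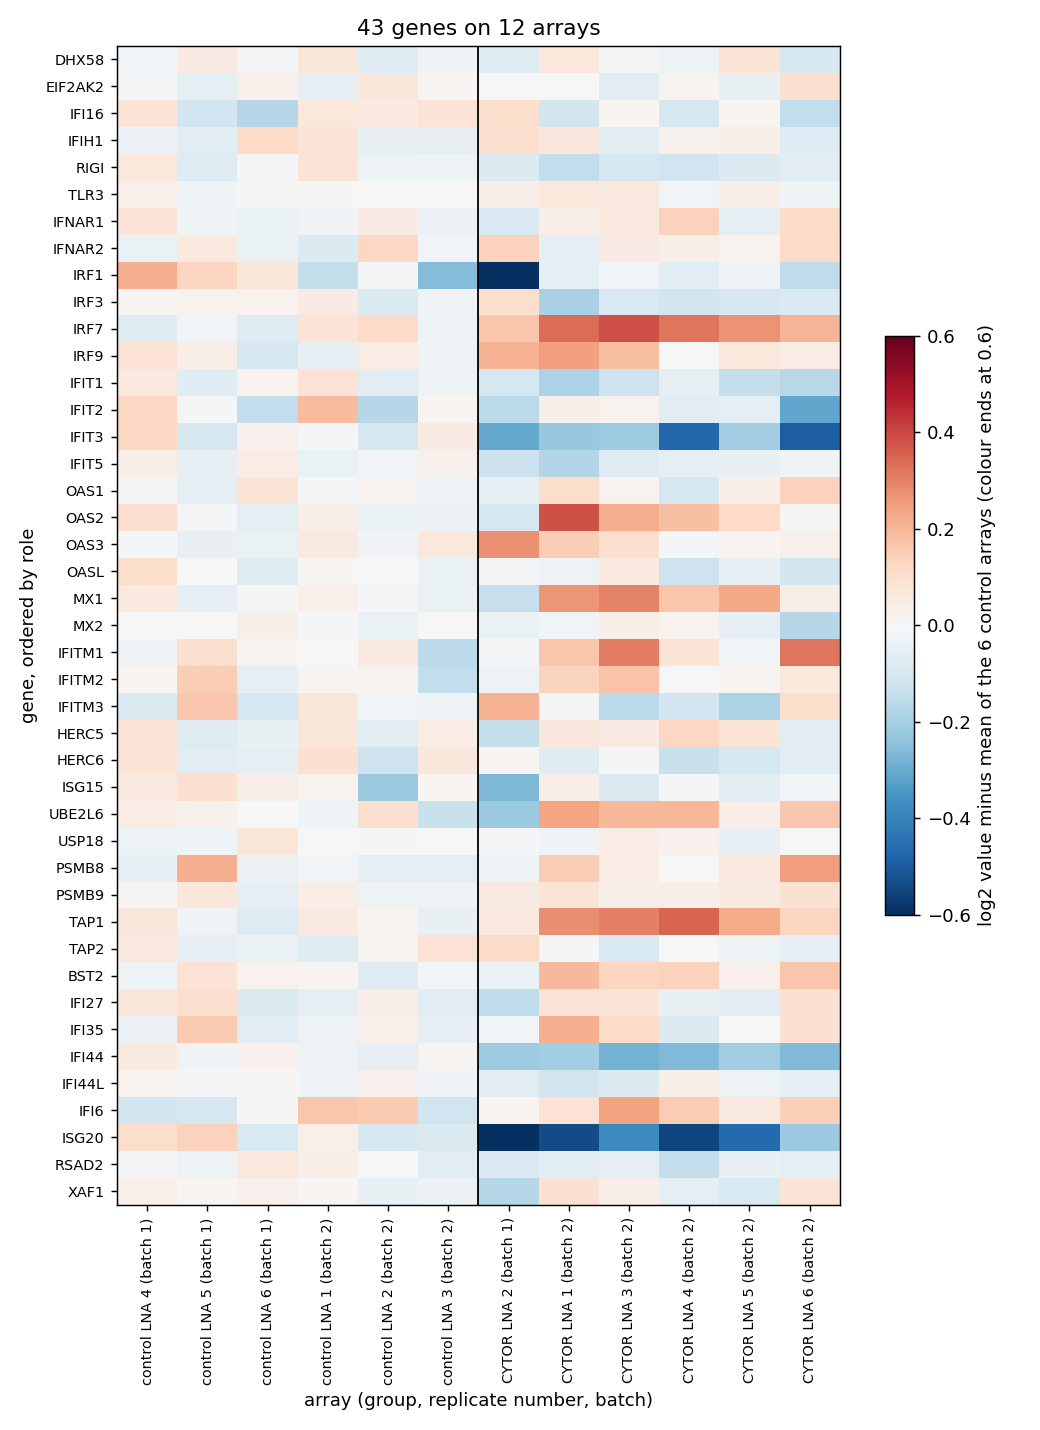
Deposited log2 value of each of the 43 genes on each of the 12 arrays minus the mean of the 6 control arrays (colour scale in log2 units, ending at 0.6); rows are genes by role and columns are arrays, controls left of the line. ISG20, IFIT3 and IFI44 are lower (blue) and IRF7 higher (red) on all 6 silenced arrays, and IRF1 is markedly lower on CYTOR LNA replicate 2 alone. All 6 silenced arrays also lie below the control mean for IFIT1, IFIT5, RIGI and RSAD2. They lie above it for TAP1, PSMB9, IFI6 and IRF9, by very little for some genes.

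Batch 1 held 1 silenced array, CYTOR LNA replicate 2, so its differences set that array against 3 controls, and every p that involves them assumes that the lone array varies like the others. The array and the batch cannot be told apart. With an interaction of group and batch in the fit, 3 of the 43 genes had an adjusted p below 0.05, where 4.52% of all genes tested did. For IRF1 the interaction was 1.13 (batch 2 minus batch 1, SE 0.117, adjusted p = 1.6e-06). UBE2L6 was 0.19 higher within batch 2 and -0.24 in batch 1 (adjusted p = 0.033), and ISG15 0.04 and -0.33 (adjusted p = 0.045). Differences had opposite signs in the batches for 23 of the 43 genes, and for 45.3% of all genes tested. The batch term itself, which compares the batches at equal treatment, was called for 0 of the 43 genes by limma (2 at an unadjusted p below 0.05), where 2.61% of all genes tested were below that unadjusted level and 0.0% were called. Whether the values were adjusted for batch before deposit is not known, so 0 calls need not mean that the batches were alike.

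Within batch 2 alone the same 3 genes fell, and 4 rose: IRF7, TAP1, BST2 (0.16, adjusted p = 0.037) and IFITM1. In that fit 4.75% of all genes tested were lower and 2.64% higher. Over both batches but without CYTOR LNA replicate 2, 3 genes fell and 3 rose, BST2 being the added one, with 4.49% and 2.47% of all genes tested. Batch 1 then holds only controls, so the differences are those within batch 2 and only the estimate of spread changes. It is therefore not a separate check. Set against the batch 1 controls, with the spread taken from the controls, CYTOR LNA replicate 2 had 3 genes past the threshold with lower values (ISG20, ISG15 and IRF1) and 1 with a higher value (OAS3). The same held for 6.66% and 5.35% of all genes tested, and this describes 1 array. The calls of ISG20, IFIT3, IFI44 and IRF7 therefore stood with and without the array that stood apart.

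**Figure D5:**
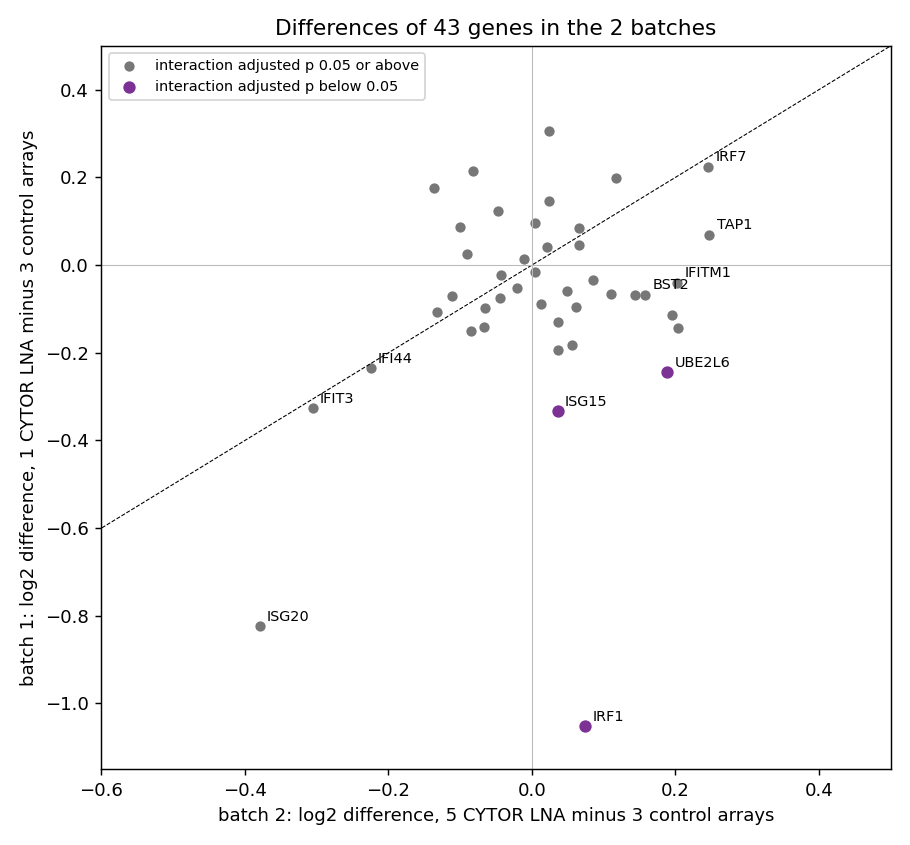
Log2 difference of each of the 43 genes within batch 2 (x axis, 5 CYTOR LNA minus 3 control arrays) and within batch 1 (y axis, 1 CYTOR LNA minus 3 control arrays); the dashed line marks equal differences. IFIT3, IFI44 and IRF7 lie near the line, and IRF1, UBE2L6 and ISG15 (purple) had an interaction adjusted p below 0.05, with batch 1 resting on 1 silenced array.

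Other genes of the pathway, from lists drawn up by role, gave few calls: of 95 tested, 1 fell, 4 rose and 90 did not pass. That is 1.05% lower and 4.21% higher, 5.26% in all, where 5.41%, 2.49% and 7.89% of all genes tested were called. Of the 95 values 64 were positive and 31 negative, with a median log2 difference of 0.03, against 0.0038 over all genes tested. Over all genes tested 6626 values were positive and 6080 negative. At an unadjusted p below 0.05, 18 were higher and 7 lower, 26.3% of the 95, against 21.6% of all genes tested (1293 higher and 1454 lower). No receptor or signalling gene passed among 16 tested: IFNGR1 (0.10, SE 0.059), IFNGR2 (-0.11, SE 0.059), JAK1 (0.08, SE 0.073) and TYK2 (0.07, SE 0.069). Within batch 2 IFNGR2 gave -0.02 and JAK1 -0.07, and in batch 1 -0.33 and 0.45. At an unadjusted p below 0.05 limma gave 0 lower and 2 higher there, named after their values were seen: STAT3 (0.22, SE 0.080, adjusted p = 0.10) and IRF2 (0.12, SE 0.042, adjusted p = 0.11). STAT3 gave 0.08 within batch 2 and 0.59 in batch 1. Of 21 interferon genes 2 passed the filter on dim probes and neither passed the test, at 0 lower and 0 higher with an unadjusted p below 0.05. IFNB1 did not pass the filter.

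Of 24 sensors, adaptors and kinases 2 rose and none fell. STING1, the adaptor that DNA sensing by CGAS activates, rose by 0.18 (SE 0.051, adjusted p = 0.028), with values of 8.02 to 8.20 (median 8.09) against 7.86 to 8.03 (median 7.91). MYD88, the adaptor of most Toll-like receptors, rose by 0.16 (SE 0.047, adjusted p = 0.037), with values of 7.62 to 7.84 (median 7.64) against 7.51 to 7.57 (median 7.55). The groups did not overlap for MYD88 and overlapped for STING1. Within batch 2 neither passed (STING1 0.14, adjusted p = 0.18; MYD88 0.11, adjusted p = 0.29). MAVS, the mitochondrial adaptor of RIGI and IFIH1, ran from 7.29 to 7.46 after the CYTOR LNA and from 7.47 to 7.60 in controls, so its groups did not overlap either. Its log2 difference of -0.13 (SE 0.041, adjusted p = 0.054) just missed the threshold. MAVS passed without the batch term, among the brightest 30% of probes, with no intensity trend and with quantile normalization. At the same threshold it did not pass in the other alternatives. These include batch 2 alone (-0.14, adjusted p = 0.093), the replicate block, array weights and every fit without 1 array. CGAS differed by 0.06 (SE 0.048) and TBK1, the kinase that activates IRF3, by 0.12 (SE 0.053, adjusted p = 0.19).

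Of 15 antigen presentation genes PSME2 rose and none fell. PSME2, a proteasome activator subunit that interferon induces, ran from 11.40 to 11.63 (median 11.49) after the CYTOR LNA and from 11.16 to 11.36 (median 11.27) in controls, a rise of 1.19-fold without overlap (log2 difference 0.26, SE 0.054, adjusted p = 0.0036, and 0.20 within batch 2, adjusted p = 0.029). B2M (-0.04, SE 0.044), HLA-B (0.17, SE 0.062, adjusted p = 0.10) and HLA-C (0.03, SE 0.039) did not pass.

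Of 38 further interferon-induced genes 1 rose and 1 fell. PARP9, an ADP-ribosyltransferase family member linked to interferon signalling, ran from 7.39 to 7.61 (median 7.51) against 7.20 to 7.35 (median 7.27) in controls and rose by 0.23 (SE 0.049, adjusted p = 0.0029). Its second probe gave 0.17 (adjusted p = 0.021). SP100, a nuclear body protein that represses viral genomes, ran from 7.40 to 7.66 (median 7.51) against 7.67 to 7.85 (median 7.77) a log2 difference of -0.25 without overlap (SE 0.050, adjusted p = 0.0019), so it fell. Its other probes gave -0.16 (adjusted p = 0.0089) and -0.07 (adjusted p = 0.39). The PARP9 groups did not overlap either. Within batch 2 both passed (PARP9 0.19, adjusted p = 0.031; SP100 -0.25, adjusted p = 0.0029).

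Beside these values, 1 of 5 tested leukocyte markers moved: CD14, a pattern recognition co-receptor, rose by 0.33 (SE 0.059, adjusted p = 0.00057), while its second probe gave 0.06 (adjusted p = 0.40). The leukocyte-defining PTPRC and CD3E did not pass the filter, and CD79A had a control mean of 6.56. CD68, also on the list, was bright, with a control mean of 10.84, and differed by 0.10 (SE 0.059, adjusted p = 0.41). The summed linear level of the 5 markers ran from 2381 to 2658 after the CYTOR LNA and from 2191 to 2556 in controls. CD68, the brightest of the 5, weighs most in that sum. Their part in the results above was not tested. Over the whole array the genes that fell were long, with a median genomic length of 83.0 kb against 27.2 kb for all genes tested. The 43 genes had a median of 16.3 kb, and the members that fell measured 20.9 kb (ISG20), 13.0 kb (IFIT3) and 14.3 kb (IFI44), all below the median of all genes tested.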

How the data were processed

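Total RNA from 12 samples was measured on single-colour bead arrays. The authors deposited normalized log2 values, and per the submitters' processing notes lumi was used. Its version, transformation and normalization settings are each not given in the sources used here. Nor is it given whether the values were adjusted for batch before deposit. If the transformation compresses low values, differences of dim probes are understated. No detection p-values were used, and the number of arrays limits the precision. Of 48107 probe rows, 784 had no values. Probes were named from the platform annotation (30113 with 1 symbol, 8 with several, 17202 with none), updated through RefSeq (GRCh38.p14). A probe entered the test if its mean over the arrays was at least the median of such means (23662 did), and a gene was represented by its brightest probe. limma 3.58.1 in R 4.3.3 (lmFit, eBayes with intensity trend) was fitted with group and batch, p-values were adjusted by Benjamini-Hochberg across the tested probes (threshold 0.05), and single genes also by exact two-sided permutation of the arrays. The permutation used the plain difference in group means and did not account for the unbalanced batches. On simulated data for this comparison with 23662 probes, 66% of changes of 0.2 on the log2 scale and 96% of those of 0.4 were recovered. The simulation changed 200 probes and used independent noise for each probe. It held no batch effect and no array that stood apart, so these shares need not hold for the real arrays.

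The members, lists, tests and naming rule were chosen with earlier results of these data known. All members are named; values by group are given for those called, those with another called probe and the 8 others with the highest control mean; of the other lists, called genes and a fixed set are named. IRF1 by group, and STAT3 and IRF2, were added after their values were seen. A batch interaction and the choice of 1 start per gene were added after the data were seen. Groups share replicate numbers, but the deviations of same-numbered samples correlated between -0.17 and 0.18, so they were not treated as pairs.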

Additional observations from a re-analysis of the deposited data

Results flagged for a closer look

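In 5 of 86 groups of values (43 genes in 2 groups of 6 arrays) 1 array lay far from the others, its gap to the nearest being a large part of the whole range (Dixon's 95% critical value). That is 5.81%, and chance alone flags about 5%. IRF1 on CYTOR LNA replicate 2 was at 7.98, the others at 8.74 to 8.88. IRF3 on the same array was at 7.80, with the others at 7.50 to 7.61. ISG15 on control replicate 2 was at 11.64, with the others at 11.87 to 11.95. PSMB8 on control replicate 5 was at 8.95, with the others at 8.68 to 8.73. USP18 on control replicate 6 was at 6.82, with the others at 6.71 to 6.75.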

How the results depend on the processing

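Over 26 alternatives the count of genes that fell stayed at 3, also without any 1 array (3 to 3). They were the same 3 genes except within batch 1, whose single silenced array gave ISG20, ISG15 and IRF1. ISG20 kept its call in all 26, and IFIT3, IFI44 and IRF7 lost theirs within batch 1 (adjusted p = 0.057, 0.23 and 0.093). The count of genes that rose, 2, was 4 within batch 2, 1 within batch 1, 1 with a replicate block, 1 with no filter, 1 at an adjusted p below 0.01, and 1 to 3 without 1 array. BST2 and IFITM1 were added within batch 2, BST2 was added without CYTOR LNA replicate 2, and the 1 within batch 1 was OAS3, with IRF7 and TAP1 both lost. TAP1 lost its call in 12 of 26 alternatives (adjusted p from 0.010 to 0.81), among them without CYTOR LNA replicate 1, 3, 4 or 5 and without control replicate 1, 2, 3 or 6. Of the other pathway genes 1 fell, and this became 5 without the batch term, 2 within batch 2, 4 among the brightest 30% of probes, 2 with no intensity trend, 2 with array weights, 2 with quantile normalization, 5 at an adjusted p below 0.10, 2 when the probes of a gene were averaged, and 1 to 2 without 1 array (2 without CYTOR LNA replicate 2 or control replicate 2). The 4 that rose became 16 within batch 1, 2 with array weights, 2 at 0.01 and 7 at 0.10, and 2 to 5 without 1 array (2 without CYTOR LNA replicate 3). MYD88 lost its call in 12 alternatives and STING1 in 7. The causes were not tested. The replicate block changed no other call among the members.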

Other observations

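Several HLA class I genes had positive values that did not pass the test, in genes chosen after their values were seen: HLA-E 0.16 (SE 0.055, limma adjusted p = 0.085), HLA-F 0.18 (SE 0.066, adjusted p = 0.12) and HLA-G 0.16 (SE 0.051, adjusted p = 0.067). Within batch 2 they differed by 0.10, 0.06 and 0.10, and in batch 1, with its single silenced array, by 0.32, 0.47 and 0.31. HLA-B showed the same order, 0.11 and 0.33. These genes are related paralogues, and signal shared between their probes was not measured. HLA-C gave 0.03. LY6E, another interferon-induced gene chosen after its value was seen, differed by 0.03 within batch 2 and by 0.56 in batch 1.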
